A study of Mus musculus with 12 samples.

Results

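The transcript levels of 10 genes of glucose handling were measured in the mouse left ventricle. The genes encode the glucose transporters Slc2a4 (GLUT4), Slc2a1 (GLUT1) and Slc2a12 (GLUT12), the hexokinases Hk1 and Hk2, the phosphofructokinase subunit Pfkm, the bifunctional enzymes Pfkfb1 and Pfkfb2, glycogen synthase Gys1 and glycogen phosphorylase Pygm. They were listed by name, and their values were those of the entries of the count table with exactly these symbols. All 10 were among the 29564 genes of the table and all 10 were among the 14333 genes with enough counts for a test.

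Glucose crosses the plasma membrane of a cardiomyocyte through facilitative transporters, of which GLUT4 moves to the surface on insulin or contraction and GLUT1 resides there. Hexokinase traps the sugar as glucose 6-phosphate, which either enters glycolysis at the step controlled by phosphofructokinase or is stored as glycogen by glycogen synthase and released again by glycogen phosphorylase. The adult heart draws most of its energy from fatty acids, and insulin resistance lowers its use of glucose.

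Polyadenylated RNA from 12 mice of genotype WT and strain C57BL6 was sequenced as 12 libraries, 4 for each of 3 groups. The Control-Veh group was non-failing and was dosed with vehicle, a mixture of DMSO, PEG-300 and water. In the HFpEF-Veh group, HFpEF (heart failure with a preserved ejection fraction) was modelled by combining HFD (a high-fat diet) with L-NAME, which blocks nitric oxide synthase, and the dose was again vehicle. The HFpEF-TYA-018 group shared HFD and L-NAME and was dosed orally with TYA-018 at 15 mg/kg, a compound that inhibits HDAC6, a largely cytoplasmic deacetylase. A single dose is named in the title, with collection hours later in the published account, and daily dosing over weeks in the labelled protocol; the former was followed here. Library names begin with C, V or T for these 3 groups and number the mice from 1 to 4. Neither age nor batch was labelled, and since the mice of a group had neighbouring animal numbers, effects of cage, date or handling order cannot be told apart from those of the group.

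Levels are given as CPM (counts of a gene scaled to a common library total), where the totals, which ran from 61.2 M to 83.9 M, were first adjusted by TMM (trimmed mean of M-values). HFpEF-Veh stood apart in composition. Its share of mitochondrially encoded counts was 45.1% ± 2.06, against 38.8% ± 1.58 in Control-Veh and 38.9% ± 2.65 after TYA-018 (SD, n = 4), and its share from 4 globin genes was 0.770% ± 0.397, against 0.204% ± 0.0374 and 0.296% ± 0.0424. Summed endothelial markers spanned 715 to 879 CPM there, against 537 to 669 CPM in Control-Veh and 523 to 680 CPM after TYA-018, and the summed macrophage and red cell markers of HFpEF-Veh likewise lay above the ranges of both other groups, while its fibroblast markers overlapped those of Control-Veh and lay above those measured after TYA-018. The cardiomyocyte markers Myh6, Tnnt2, Actc1, Ryr2 and Pln summed to between 14261 and 17579 CPM in every library, with none at 0, whereas skeletal muscle markers summed to at most 12.1 CPM (in 1 HFpEF-Veh library), atrial markers to at most 2.87 and adipocyte markers to at most 1.099. Liver markers summed to between 22.5 and 63.8 CPM in Control-Veh, 1.89 and 9.73 CPM in HFpEF-Veh and 2.57 and 58.6 CPM after TYA-018, and all 3 fell in HFpEF-Veh against Control-Veh (median log2 fold change -2.46). In HFpEF-Veh against Control-Veh 3 of the 5 cardiomyocyte markers were lower and 1 higher (median log2 fold change -0.24), and in HFpEF-TYA-018 against HFpEF-Veh 2 were higher and 0 lower (median 0.26). In bulk RNA, fewer cells of a type and less RNA per cell cannot be told apart.

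In Control-Veh the order of levels, as CPM per kilobase of the longest annotated transcript, was led by the muscle isoforms Pygm (279), Pfkm (164) and Slc2a4 (80.1). Hk2 (21.3), Hk1 (20.6) and Gys1 (16.8) followed, then Pfkfb1 (9.76), Pfkfb2 (7.85), Slc2a1 (3.17) and Slc2a12 (0.767). The libraries of the neighbours Hk2 and Hk1 overlapped on this scale, as did those of Pfkfb1 and Pfkfb2, and every other neighbouring pair was separate. The first 3 and the last 2 places held in all 3 groups, whereas Hk1 stood above Hk2 in HFpEF-Veh and Pfkfb2 above Pfkfb1 in both HFpEF groups. The order depends on the length used. The deposited effective length of Hk2 averaged 738 bases against 5513 bases for its longest transcript, and in the deposited TPM (counts over effective length, scaled to a common total) of Control-Veh, Hk2 ranked 2 (58.1 ± 7.42) and Slc2a4 ranked 4 (13.8 ± 0.833).

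**Figure D1:**
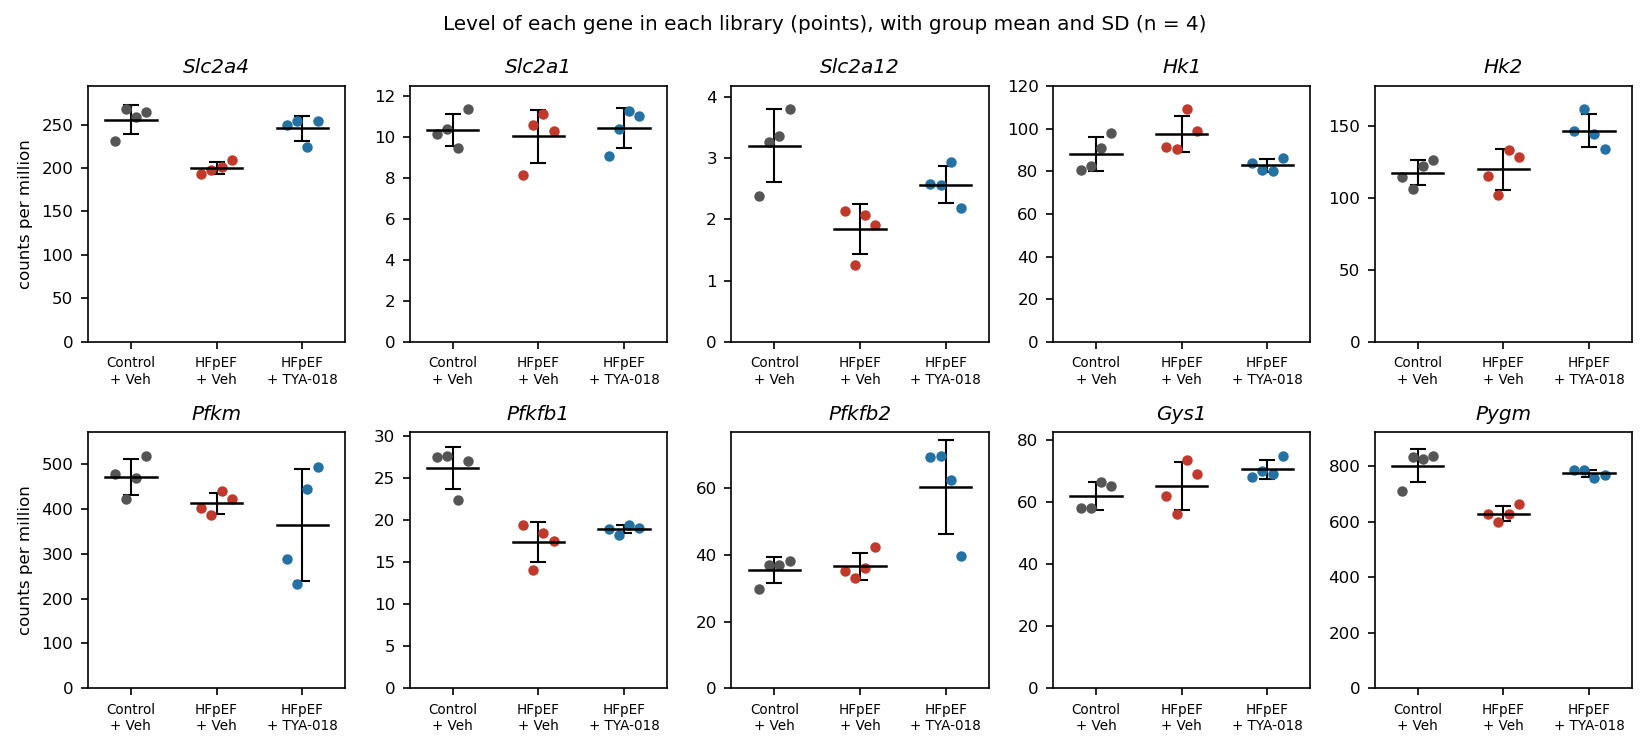
Level of each of the 10 genes in CPM (vertical axis, from 0, a separate scale for each gene) in the 12 libraries, by group; points are libraries and black bars are the group mean and SD (n = 4). The 4 HFpEF-Veh libraries lie below the 4 Control-Veh libraries for Slc2a4, Slc2a12, Pfkfb1 and Pygm, and 3 of the 4 HFpEF-TYA-018 libraries lie above all others for Pfkfb2.

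The model comparison set HFpEF-Veh against Control-Veh and addresses what the diet and L-NAME model did to these genes. Slc2a4, Slc2a12, Pfkfb1 and Pygm fell, 0 members rose and 6 did not pass the test (edgeR quasi-likelihood test, Benjamini-Hochberg adjusted over all genes, threshold 0.05). Among all tested genes 21.2% were called, 10.9% higher and 10.3% lower. The groups did not overlap for 4 members, all of them below, against 23.6% of all genes. On the log2(TPM + 1) scale limma called 0 members, with 5 at an unadjusted p under 0.05, and the adjusted p of the 4 genes named above ran from 0.0968 to 0.188. The median log2 fold change of the 10 members was -0.12 against -0.01 for all genes.

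The drug comparison set HFpEF-TYA-018 against HFpEF-Veh and addresses the HDAC6 inhibitor in the diseased heart. Slc2a4, Hk2, Pfkfb2 and Pygm rose, Hk1 fell and 5 members did not pass. The background was 19.3% of genes called, 8.93% higher and 10.4% lower. Groups were separate for 5 members, 4 above and 1 below, against 25.1% of all genes. On the log2(TPM + 1) scale 4 members were called by limma and the split over all genes was 2228 higher to 68 lower, against 1280 to 1487 in edgeR, with a median of 0.17 over all genes. The members' median was 0.21 and that of all genes was 0.002. The model and drug comparisons share the HFpEF-Veh libraries, so their values below are given side by side and not as independent evidence.

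The remaining comparison set HFpEF-TYA-018 against Control-Veh and shows where treated hearts stood relative to healthy ones. Pfkfb2 was called higher and Pfkfb1 lower, and 8 members did not pass, where 5.86% of all genes were called (3.12% higher and 2.74% lower). With limma on the log2(TPM + 1) scale 0 members were called, with 3 at an unadjusted p under 0.05. Groups were separate for 4 members (Hk2, Pfkfb2 and Gys1 above, Pfkfb1 below) against 14.8% of all genes. The median was -0.05 for the members and -0.02 for all genes.

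**Figure D2:**
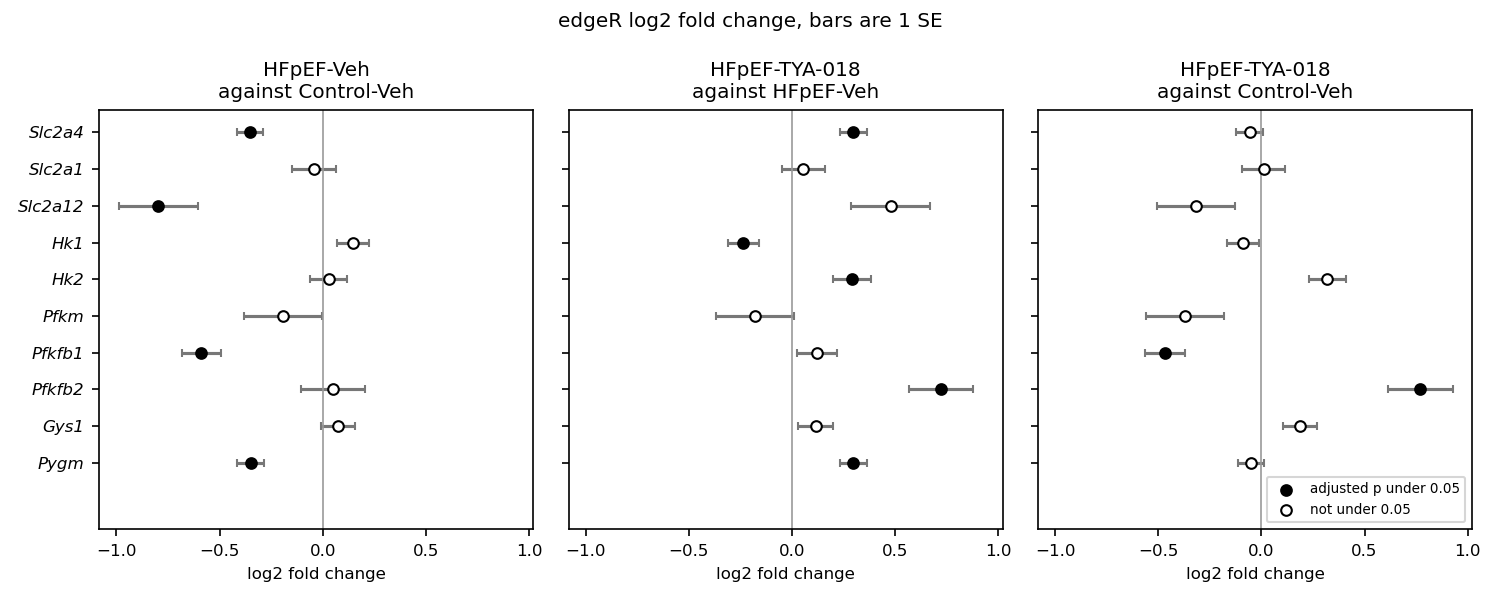
edgeR log2 fold change (horizontal axis) of each gene in the 3 comparisons, with bars of 1 SE; filled points have an adjusted p under 0.05. Slc2a4 and Pygm lie left of 0 in the first panel, right of 0 in the second and near 0 in the third, while Pfkfb2 lies near 0 in the first and at 0.72 and 0.77 in the others.

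Slc2a4, the insulin-responsive transporter of muscle and fat (chromosome 11, 69942539 to 69948188, minus strand, GRCm38), stood at 231, 268, 259 and 265 CPM in C1 to C4, at 193, 197, 201 and 209.5 CPM in V1 to V4 and at 249.99, 254, 225 and 254 CPM in T1 to T4. The HFpEF-Veh libraries lay below every other library, and the remaining 2 groups overlapped. Its log2 fold change of -0.35 ± 0.06 (SE) in the model comparison passed (edgeR adjusted p = 0.00346), as did 0.30 ± 0.06 in the drug comparison (edgeR adjusted p = 0.00935). In HFpEF-TYA-018 against Control-Veh it was -0.06 ± 0.06 (edgeR adjusted p = 0.661). On the log2(TPM + 1) scale the drug comparison gave 1.02 (limma adjusted p = 0.0257), and the deposited effective length of Slc2a4 differed 1.96-fold between the libraries at its extremes.

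Slc2a1, the widely expressed basal transporter that endothelial cells also carry (chromosome 4, 119108711 to 119137983, plus strand), stood at 10.1, 10.4, 9.48 and 11.4 CPM in C1 to C4, 8.17, 10.6, 11.1 and 10.3 CPM in V1 to V4 and 9.05, 10.4, 11.3 and 11.001 CPM in T1 to T4. All 3 groups overlapped. Its log2 fold changes in the order of the comparisons above were -0.04 ± 0.10, 0.05 ± 0.10 and 0.01 ± 0.10, with edgeR adjusted p of 0.811, 0.760 and 0.963.

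Slc2a12, a further facilitative transporter (chromosome 10, 22645011 to 22704285, plus strand), was the lowest of the 10, with 74 to 260 counts in a library. It stood at 2.37, 3.26, 3.36 and 3.79 CPM in C1 to C4, 2.13, 1.25, 2.07 and 1.91 CPM in V1 to V4 and 2.58, 2.56, 2.93 and 2.19 CPM in T1 to T4. The HFpEF-Veh libraries were again below all others. It fell by 0.80 on the log2 scale in the model comparison (SE 0.19, edgeR adjusted p = 0.0127), and in the drug comparison the difference of 0.48 ± 0.19 did not pass (edgeR adjusted p = 0.0989), although all 4 treated libraries exceeded all 4 vehicle libraries. Against Control-Veh the treated group differed by -0.32 ± 0.19 (edgeR adjusted p = 0.354).

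The hexokinases were called in opposite directions in the drug comparison. Hk1, the isoform of most tissues (chromosome 10, 62268855 to 62379908, minus strand), stood at 80.8, 82.7, 91.0 and 98.1 CPM in C1 to C4, 91.6, 90.7, 109 and 98.8 CPM in V1 to V4 and 84.1, 80.8, 80.0 and 86.3 CPM in T1 to T4. Hk2, the insulin-regulated isoform of muscle and fat (chromosome 6, 82725025 to 82774454, minus strand), stood at 115, 107, 122 and 126 CPM in C1 to C4, 115, 102, 134 and 128 CPM in V1 to V4 and 147, 162, 144 and 134 CPM in T1 to T4. After TYA-018 every Hk1 value was below, and every Hk2 value above, all HFpEF-Veh values. Neither gene was called in the model comparison, at 0.15 ± 0.08 for Hk1 (edgeR adjusted p = 0.195) and 0.03 ± 0.09 for Hk2 (edgeR adjusted p = 0.856). In the drug comparison, Hk1 fell by 0.24 on the log2 scale (SE 0.08, edgeR adjusted p = 0.0491) and Hk2 rose by 0.29 ± 0.09 (edgeR adjusted p = 0.0424). In HFpEF-TYA-018 against Control-Veh, Hk1 differed by -0.09 ± 0.08 (edgeR adjusted p = 0.538) and Hk2 by 0.32 ± 0.09 (edgeR adjusted p = 0.0601). Both calls lay close to the threshold. The Hk1 call was lost without C3, V1, V3, V4, T1, T2, T3 or T4 (edgeR adjusted p between 0.0549 and 0.135) and the Hk2 call without C3, C4, V1, V2, V4, T1, T2 or T3 (between 0.0508 and 0.125), and the Hk1 difference was 0.31 in the opposite direction on the log2(TPM + 1) scale (limma adjusted p = 0.196). Neither call passed with no filter on low counts (edgeR adjusted p = 0.0740 for Hk1 and 0.0507 for Hk2) or with the deposited effective lengths as an offset (0.587 and 0.456).

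Pfkm, the muscle subunit of the enzyme that commits glucose to glycolysis (chromosome 15, 98092589 to 98132451, plus strand), stood at 477, 422, 468 and 518 CPM in C1 to C4, 402, 386, 440.1 and 422 CPM in V1 to V4 and 289, 232, 445 and 492 CPM in T1 to T4. The treated libraries split into a low pair, T1 and T2, and a high pair within the range of the other groups. No comparison passed, at -0.19 ± 0.19, -0.18 ± 0.19 and -0.37 ± 0.19 (edgeR adjusted p of 0.508, 0.545 and 0.275). Without T2 the second difference was -0.01 and without T4 it was -0.36. An overlapping gene on the same strand, Gm26513, holds 8.83% of the 50-base words of Pfkm. How far this affects the Pfkm count was not tested.

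Pfkfb1 and Pfkfb2 make and break fructose 2,6-bisphosphate, the activator of phosphofructokinase, and Pfkfb2 is the heart isoform. Pfkfb1 (chromosome X, 150588229 to 150643878, plus strand) stood at 27.5, 27.7, 22.4 and 27.1 CPM in C1 to C4, 19.5, 14.1, 18.5 and 17.5 CPM in V1 to V4 and 19.0, 18.3, 19.4 and 19.1 CPM in T1 to T4. All 8 HFpEF libraries lay below all 4 Control-Veh libraries, and the treated group fell within the range of HFpEF-Veh. It fell by 0.59 on the log2 scale in the model comparison (SE 0.10, edgeR adjusted p = 0.00197) and by 0.47 in HFpEF-TYA-018 against Control-Veh (SE 0.10, edgeR adjusted p = 0.0188), with 0.12 ± 0.10 between the HFpEF groups (edgeR adjusted p = 0.408). The call in treated hearts against Control-Veh was lost without C4 (edgeR adjusted p = 0.0564) or T2 (edgeR adjusted p = 0.0578).

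Pfkfb2 (chromosome 1, 130689182 to 130729253, minus strand) stood at 29.7, 37.0, 36.9 and 38.0 CPM in C1 to C4, 35.02, 33.0, 36.0 and 42.4 CPM in V1 to V4 and 69.4, 69.6, 62.5 and 39.8 CPM in T1 to T4. T1, T2 and T3 exceeded every untreated library and T4 lay inside the HFpEF-Veh range. In HFpEF-TYA-018 the gene rose by 0.72 ± 0.16 against HFpEF-Veh (edgeR adjusted p = 0.00904) and by 0.77 ± 0.16 against Control-Veh (edgeR adjusted p = 0.0178), the largest differences among the 10 genes in those 2 comparisons. HFpEF-Veh and Control-Veh differed by 0.05 ± 0.16 (edgeR adjusted p = 0.856). Without T4 the first of these differences was 0.88 (edgeR adjusted p = 0.000776), and without T2 the one against Control-Veh did not pass (0.69, edgeR adjusted p = 0.0555). With effective lengths as an offset they were 0.54 and 0.78, and neither passed (edgeR adjusted p of 0.127 and 0.0826). Of the 50-base words of Pfkfb2, 15.9% also occur in other genes, namely the overlapping same-strand model Gm29427 and Mms19. The effect on the Pfkfb2 count was not tested.

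Gys1, muscle glycogen synthase (chromosome 7, 45434844 to 45456619, plus strand), stood at 58.3, 58.0, 66.5 and 65.2 CPM in C1 to C4, 62.0, 56.1, 73.6 and 69.2 CPM in V1 to V4 and 68.2, 70.1, 69.1 and 75.0 CPM in T1 to T4. All treated libraries exceeded all Control-Veh libraries, and both overlapped HFpEF-Veh. None of the differences passed, at 0.07 ± 0.08, 0.11 ± 0.08 and 0.19 ± 0.08 (edgeR adjusted p of 0.563, 0.368 and 0.208).

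Pygm, the glycogen phosphorylase of muscle (chromosome 19, 6384399 to 6398459, plus strand), was the highest of the 10 and followed Slc2a4. It stood at 711, 832, 825 and 837 CPM in C1 to C4, 628, 598, 626 and 664 CPM in V1 to V4 and 784, 785, 756 and 767 CPM in T1 to T4. Every HFpEF-Veh value was below all others, and the treated values fell between the lowest and the remaining Control-Veh values. It fell by 0.35 on the log2 scale in the model comparison (SE 0.06, edgeR adjusted p = 0.00350), rose by 0.30 ± 0.06 in the drug comparison (edgeR adjusted p = 0.00901) and stood at -0.05 ± 0.06 against Control-Veh (edgeR adjusted p = 0.690). With the deposited effective lengths as an offset these values were -0.23, 0.05 and -0.19, and none passed (edgeR adjusted p of 0.263, 0.853 and 0.466).

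The promoters of 3 members that were higher after TYA-018 are shown for comparison, as RefSeq windows of 300 bases (250 before to 50 from the start on, build GRCm38.p6). RefSeq windows matched 9 of the 10 members, and Slc2a4 is named only. Capitals mark matches, on either strand, of the muscle E-box CAGCTG, the GC box GGGCGG and the core TGACG of the cyclic AMP element, none of which overlap here. Of the 3 Pfkfb2 windows, the one at the start of 7 of its 13 annotated transcripts was taken.
Pygm, chr19:6384158-6384457, plus strand: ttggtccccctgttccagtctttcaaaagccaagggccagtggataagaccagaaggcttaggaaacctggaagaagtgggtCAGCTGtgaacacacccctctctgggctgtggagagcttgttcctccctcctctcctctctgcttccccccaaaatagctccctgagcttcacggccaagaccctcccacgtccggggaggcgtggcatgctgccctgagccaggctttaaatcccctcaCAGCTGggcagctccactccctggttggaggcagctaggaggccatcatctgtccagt
Pfkfb2, chr1:130714527-130714826, minus strand: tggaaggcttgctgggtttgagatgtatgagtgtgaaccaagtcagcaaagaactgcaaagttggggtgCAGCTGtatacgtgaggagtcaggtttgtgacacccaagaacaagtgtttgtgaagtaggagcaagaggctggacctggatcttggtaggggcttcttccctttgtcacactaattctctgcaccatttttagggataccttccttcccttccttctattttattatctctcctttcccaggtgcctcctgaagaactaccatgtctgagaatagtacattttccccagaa
Hk2, chr6:82774405-82774704, minus strand: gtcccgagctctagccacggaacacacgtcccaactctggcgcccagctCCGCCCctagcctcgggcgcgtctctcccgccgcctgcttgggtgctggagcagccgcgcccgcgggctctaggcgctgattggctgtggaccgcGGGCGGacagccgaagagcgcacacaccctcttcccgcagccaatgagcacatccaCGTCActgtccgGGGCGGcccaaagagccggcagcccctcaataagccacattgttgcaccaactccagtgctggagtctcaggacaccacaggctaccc

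The Pygm window held 2 copies of CAGCTG, the first bases of which lay 168 and 8 bases before the start, and the Pfkfb2 window held 1. The Hk2 window held none of these but 3 copies of GGGCGG and 1 of TGACG. Members that did not rise after TYA-018 held the same letters, with 2 copies of CAGCTG and 3 of GGGCGG for Gys1, 1 and 2 for Pfkfb1 and 2 copies of GGGCGG for Slc2a1. Of all 32851 promoter windows 16.3% held CAGCTG, 35.7% held GGGCGG and 20.8% held TGACG. The motif CACGTG was found only in the Pfkm window and the MEF2-type motif (CTA, then 4 bases of any kind, then TAG) only in the Slc2a12 window among the 9, against 7.15% and 3.69% of all windows. A match is a string of letters, and binding was not measured.

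Ratios of 2 members within a library do not depend on how libraries are scaled to each other. They can differ between counts and TPM, where effective lengths enter. The ratio of Hk1 to Hk2 counts ran from 0.704 to 0.776 in Control-Veh, from 0.769 to 0.885 in HFpEF-Veh and from 0.500 to 0.644 after TYA-018. The treated libraries lay below all others, by 0.53 on the log2 scale against HFpEF-Veh and by 0.41 against Control-Veh (exact permutation test, two-sided, p = 0.0286 in each, the smallest that 4 against 4 allows). The ratio of Pfkfb1 to Pfkfb2 averaged 0.740, 0.474 and 0.322 in the order of the groups (geometric means). Both HFpEF groups were separate from Control-Veh (exact permutation p = 0.0286 in each), and the HFpEF groups overlapped (exact permutation p = 0.0857). The ratio of Gys1 to Pygm averaged 0.0774, 0.103 and 0.0913 in the same order, with both HFpEF groups above Control-Veh (exact permutation p = 0.0286 in each). The ratio of Slc2a1 to Slc2a4 was 0.0404, 0.0498 and 0.0423, and its groups overlapped in every comparison. Over the 12 ratio tests the smallest adjusted p of these exact permutation tests was 0.0571, so that none passed after adjustment.

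**Figure D3:**
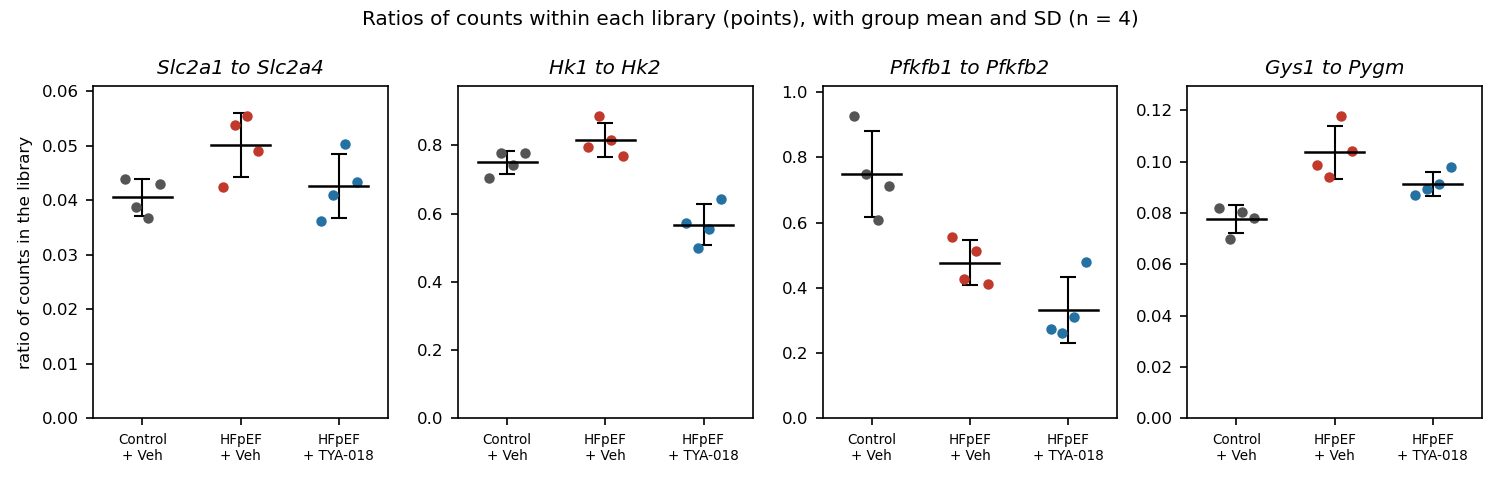
Ratio of the counts of 2 members within each library (vertical axis, from 0), by group; points are libraries and black bars the mean and SD (n = 4). The treated libraries are lowest for Hk1 to Hk2, and the ratio of Pfkfb1 to Pfkfb2 is highest in Control-Veh.

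Of the 5 cardiomyocyte markers, 3 were lower and 1 higher in the model comparison, and 2 were higher and 0 lower in the drug comparison. Their median log2 fold changes, -0.24 and 0.26, had the direction of Slc2a4 and Pygm, although the summed markers overlapped in the former comparison. The members were therefore also expressed over these markers, as the log2 count minus the mean log2 count of the 5 markers in the same library. This scaling was chosen after the data were seen. All members share the reference, so each lay higher over the markers than in edgeR in the model comparison, and lower in the drug comparison. For Slc2a1 the values went from -0.04 to 0.23 and from 0.05 to -0.27. The share of all genes without overlap on this scale was not worked out. On it Slc2a4 differed by -0.07 in the model comparison (exact permutation p = 0.114) and by -0.03 in the drug comparison (exact permutation p = 0.600). Pygm likewise differed by -0.07 (exact permutation p = 0.143) and -0.03 (exact permutation p = 0.429). The fall and the rise of both genes were thus not seen relative to these markers. The rise of Hk2 in the drug comparison was not seen either, at -0.03 (exact permutation p = 0.571), while Hk2 was higher in both HFpEF groups than in Control-Veh without overlap, by 0.31 and 0.27 (exact permutation p = 0.0286 in each). In edgeR these last 2 differences were 0.03 and 0.32, and the shift shared by all members enters the first of them.

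The differences of Hk1 were larger over the markers than on CPM. Hk1 differed by -0.56 in the drug comparison and by 0.43 in the model comparison, with no overlap (exact permutation p = 0.0286 in each), beside endothelial and red cell markers that were higher in HFpEF-Veh. The part of those cell types in the Hk1 values was not tested. Against Control-Veh, treated hearts kept a Pfkfb1 difference of -0.51 and a Pfkfb2 difference of 0.69, both without overlap (exact permutation p = 0.0286 in each). In the model comparison Gys1 and Pfkfb2 were higher without overlap, by 0.35 and 0.33 (exact permutation p = 0.0286 in each). In edgeR these differences were 0.07 and 0.05, and the shift shared by all members enters both values over the markers. Slc2a1 and Pfkm differed by -0.27 and -0.57 in the drug comparison, more than on CPM but with overlap (exact permutation p = 0.114 in each). The differences that follow were smaller than on CPM and overlapped. The Pfkfb2 difference against HFpEF-Veh was 0.36 (exact permutation p = 0.143). Slc2a12 and Pfkfb1 in the model comparison were at -0.53 and -0.31 (exact permutation p of 0.0857 and 0.0571). Over all 30 of these tests the smallest adjusted p of the exact permutation tests was 0.107.

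**Figure D4:**
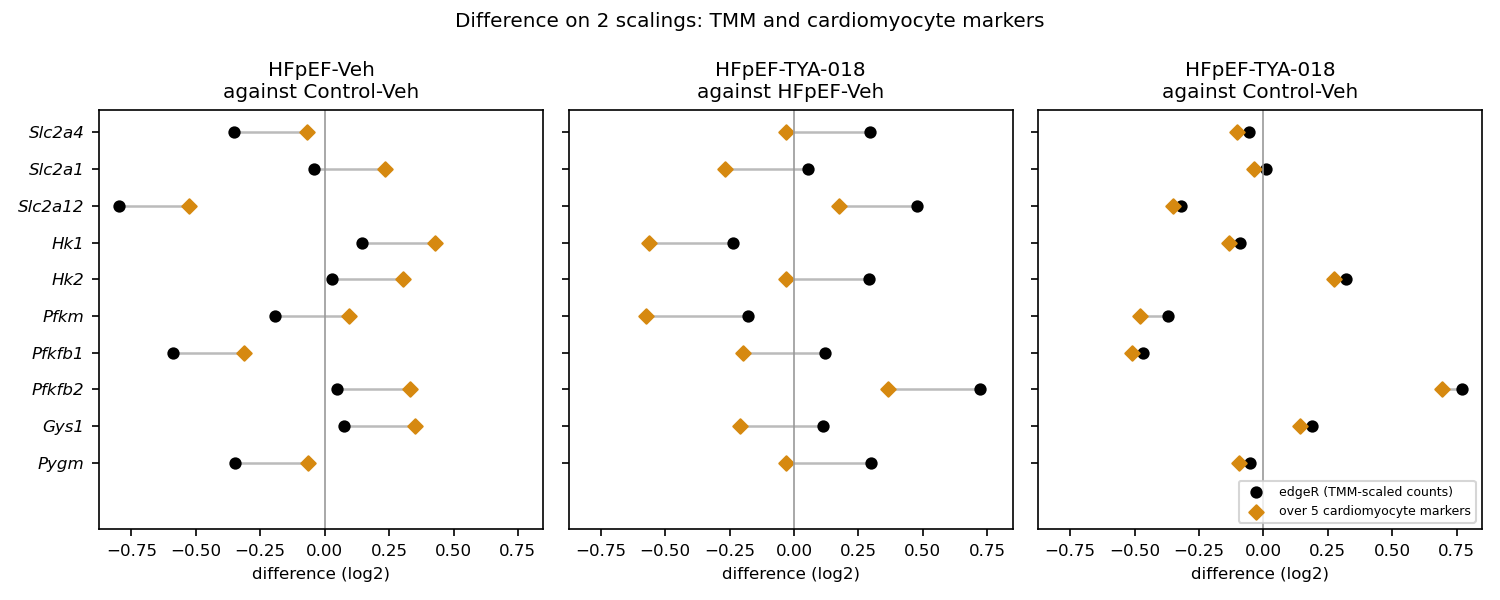
Difference of each gene in the 3 comparisons (horizontal axis, log2) on 2 scalings: black circles are edgeR log2 fold changes on TMM-scaled counts and orange diamonds are differences over the mean log2 count of 5 cardiomyocyte markers in the same library. For Slc2a4 and Pygm the diamonds lie at -0.07 and -0.03 in the first 2 panels, and in the third panel circles and diamonds lie close together.

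The other genes of the pathway, 69 listed by their roles with 66 in the table and 62 tested, moved in both directions. In the model comparison 9 rose and 9 fell, in the drug comparison 13 rose and 7 fell, and in HFpEF-TYA-018 against Control-Veh 6 rose and 3 fell. Over all tested genes the shares called higher and lower were 10.9% and 10.3%, 8.93% and 10.4%, and 3.12% and 2.74% in these comparisons. On the log2(TPM + 1) scale limma called 17 pathway genes higher and 0 lower in the drug comparison, so that none of the calls of a fall held there, and without T1 edgeR called 8 higher and 2 lower. The median log2 fold changes of the 62 genes were 0.003, 0.08 and 0.06 against -0.01, 0.002 and -0.02 for all genes. In the last comparison the calls were Pfkl, Pfkp, Fbp2, Pgam1, Pgk1 and Pygb higher and Pfkfb3, Slc2a3 and Tbc1d4 lower. There limma called 0 pathway genes on the log2(TPM + 1) scale, and edgeR with effective lengths as an offset called 3 higher and 0 lower. No fall was called there without C1, C2, V4, T1, T2 or T4. In the model comparison limma called 1 pathway gene on the log2(TPM + 1) scale.

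Among 12 tested genes of GLUT4 traffic, 1 rose and 1 fell in the model comparison, against 10.9% and 10.3% of all tested genes. The gene that fell was Tbc1d4 (AS160), the Akt substrate that holds GLUT4 vesicles inside the cell until insulin acts, with CPM of 57.1 ± 6.91, 29.7 ± 5.66 and 40.1 ± 4.59 (SD, n = 4) in the order of the groups. It gave log2 fold changes of -0.94 ± 0.13, 0.43 ± 0.13 and -0.51 ± 0.13 in the 3 comparisons (edgeR adjusted p of 0.000975, 0.0375 and 0.0424). In the drug comparison, Aspscr1 (TUG, a tether of GLUT4 vesicles) also rose, and Stxbp3a, Sort1 and Arrdc4 fell, with Stxbp3a at 9.06 ± 0.172 against 11.6 ± 0.314 CPM (log2 fold change -0.36 ± 0.09, edgeR adjusted p = 0.0176). Arrdc4, an arrestin-like protein related to Txnip, was also the gene that rose in HFpEF-Veh. Of the 6 other transporters tested, Slc2a8 (GLUT8) fell in HFpEF-Veh and rose after TYA-018, at 11.4 ± 0.966, 8.18 ± 0.851 and 12.1 ± 1.01 CPM in the order of the groups. Slc2a3 (GLUT3), at 1.90 ± 0.191 CPM, was lower in HFpEF-TYA-018 than in both other groups (log2 fold change -0.55 ± 0.12 and -0.50 ± 0.12, edgeR adjusted p of 0.0108 and 0.0374).

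Among 9 tested genes at the hexokinase and phosphofructokinase steps, 4 rose and 1 fell in the model comparison. Of all tested genes 10.9% rose and 10.3% fell there. The non-muscle phosphofructokinase subunits Pfkl and Pfkp rose by 0.49 ± 0.07 and 0.92 ± 0.13 (edgeR adjusted p of 0.000922 and 0.000970), where Pfkm gave -0.19 ± 0.19. Pfkl stood at 72.2 ± 4.71, 102 ± 6.94 and 108 ± 5.59 CPM and Pfkp at 25.3 ± 4.08, 47.9 ± 8.06 and 39.1 ± 2.88 CPM in the order of the groups. Both also rose in treated hearts against Control-Veh (0.58 ± 0.07 and 0.63 ± 0.13, edgeR adjusted p of 0.00127 and 0.0180). Fbp2, the fructose bisphosphatase of muscle that runs the opposite reaction, was higher in both HFpEF groups than in Control-Veh, at 24.2 ± 4.60, 31.8 ± 2.02 and 40.5 ± 4.22 CPM. Gpi1 fell in HFpEF-Veh, and Gpi1 was the 1 gene of this list that rose after TYA-018 against HFpEF-Veh. Pfkfb3, the inducible relative of Pfkfb1 and Pfkfb2, fell in treated hearts against Control-Veh (9.29 ± 0.619 against 13.1 ± 2.25 CPM, log2 fold change -0.50 ± 0.12, edgeR adjusted p = 0.0353).

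Lower glycolysis had 11 tested genes, of which 1 rose and 3 fell in the model comparison, against 10.9% and 10.3% of all tested genes. Eno3, the enolase of muscle, went from 959 ± 118 down to 557 ± 13.2 CPM (-0.78 ± 0.09 on the log2 scale, edgeR adjusted p = 0.000441) and Ldhb, the heart subunit of lactate dehydrogenase, from 834 ± 95.8 down to 576 ± 11.6 CPM (-0.54 ± 0.09, edgeR adjusted p = 0.00234). In HFpEF-TYA-018 Eno3 was at 841 ± 65.8 and Ldhb at 827 ± 87.5 CPM, and with Pkm they were the 3 genes of the list that rose against HFpEF-Veh, where 0 fell. Of all tested genes 8.93% rose and 10.4% fell in that comparison. Gapdh was the other gene that fell in HFpEF-Veh. Pgam1, the non-muscle phosphoglycerate mutase, was the gene that rose, and it was higher in both HFpEF groups, at 45.4 ± 4.61, 69.4 ± 4.13 and 64.8 ± 4.41 CPM in the order of the groups (log2 fold change 0.61 ± 0.08 and 0.51 ± 0.08 against Control-Veh, edgeR adjusted p of 0.000681 and 0.00457).

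In glycogen synthesis 3 of 12 tested genes rose in the model comparison, namely Ppp1r3c, Pgm1 and the branching enzyme Gbe1, and 0 fell. Of all tested genes 10.9% rose and 10.3% fell there. Ppp1r3c, which brings protein phosphatase 1 to glycogen and thereby activates glycogen synthase, stood at 38.9 ± 1.87, 82.1 ± 25.97 and 55.3 ± 4.21 CPM in the order of the groups. It rose by 1.08 ± 0.17 in the model comparison (edgeR adjusted p = 0.00170) and fell by 0.57 on the log2 scale after TYA-018 against HFpEF-Veh (SE 0.17, edgeR adjusted p = 0.0353), while Gys1 itself passed in neither comparison. The HFpEF groups overlapped for Ppp1r3c, with V1 at 55.9 and T2 at 61.3 CPM, and its highest HFpEF-Veh library, V3, stood at 115.7 CPM. In the drug comparison 1 gene of the list rose, Pgm2, and 2 fell, Ppp1r3c and Pgm1. In glycogen breakdown 0 of 12 tested genes rose and 3 fell in the model comparison, and 5 rose and 1 fell in the drug comparison. Of all tested genes 10.9% rose and 10.3% fell in the former, and 8.93% and 10.4% in the latter. The genes of this list that fell in the model comparison were Phkg1 and Phka2, subunits of the kinase that activates glycogen phosphorylase, and Gaa, the lysosomal glucosidase. Those that rose after TYA-018 included Pygb, Gaa, Epm2a and Phkg1. Pygb, the brain isoform of glycogen phosphorylase, stood at 314 ± 18.6, 281 ± 23.1 and 399 ± 15.0 CPM in the order of the groups (log2 fold change 0.51 ± 0.07 in the drug comparison, edgeR adjusted p = 0.00137), and Gaa at 107 ± 2.24, 90.0 ± 3.14 and 113 ± 2.83 CPM (0.33 ± 0.05, edgeR adjusted p = 0.00147). The gene that fell was Stbd1, which binds starch and glycogen, from 6.15 ± 0.676 to 4.75 ± 0.411 CPM (-0.37 ± 0.10, edgeR adjusted p = 0.0278).

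**Figure D5:**
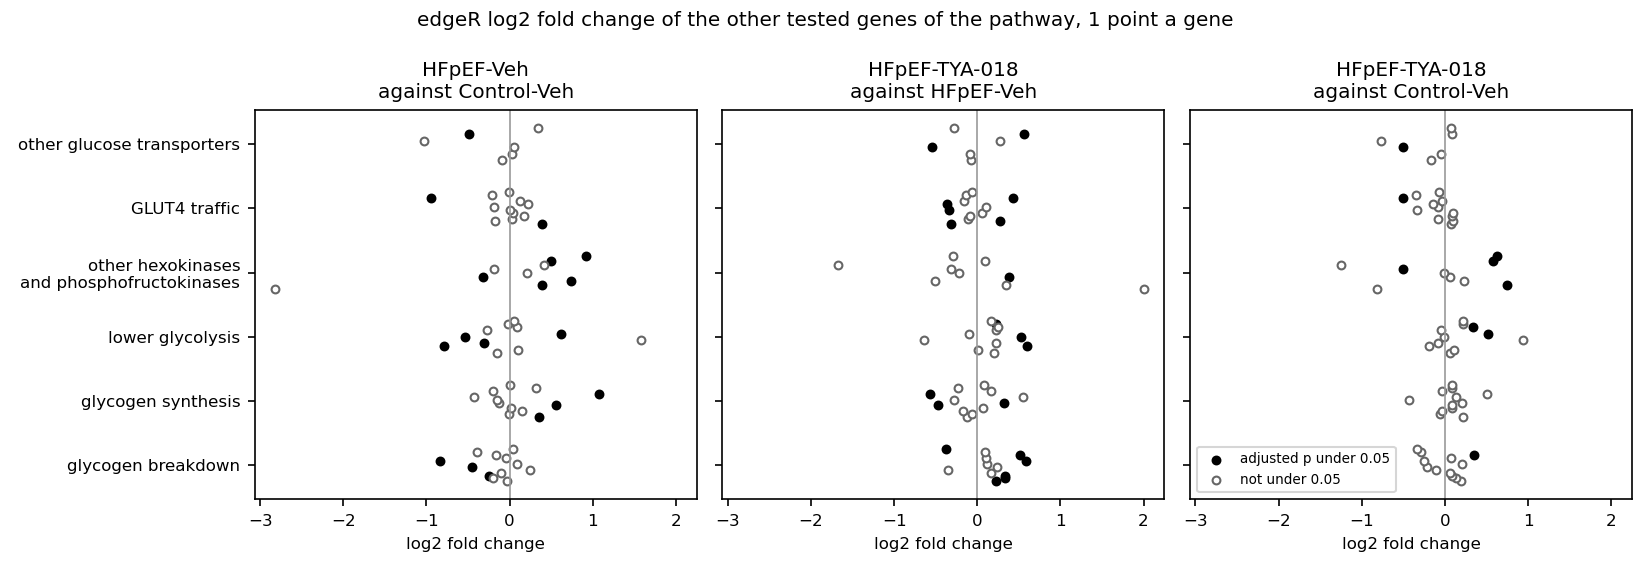
edgeR log2 fold change (horizontal axis) of the 62 other tested genes of the pathway in 6 lists by role, 1 point a gene, in the 3 comparisons; filled points have an adjusted p under 0.05. In glycogen breakdown the 3 filled points of the first panel lie left of 0 and 5 of the 6 in the second panel lie right of it.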

How the data were processed

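The authors trimmed reads with fastp and quantified them with Salmon (1.6.0 in the submitters' processing notes) and tximport against GENCODE mouse transcripts on GRCm38; the labels name hg38, but the rows carry mouse symbols. Libraries were prepared with a stranded kit. The deposited tables held, for 29564 genes, the expected count (an estimated count that need not be whole), TPM, and another value, the effective length in bases. Read length, layout and number differ between the labels and the published methods. The members and the gene lists were chosen with earlier results of these data known.

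Estimated counts were rounded and tested with edgeR 4.0.16 (filterByExpr, TMM, quasi-likelihood F test, one fit over the 3 groups with 9 residual degrees of freedom, Benjamini-Hochberg over 14333 genes), run in R 4.3.3. Alternatives used DESeq2 1.42.0, limma 3.58.1 on log2(TPM + 1) or log2(TPM + 0.1), lengths as an offset, no filter, no mitochondrially encoded genes, the compared groups alone, and each library left out. Ratios were compared with exact two-sided permutation tests. The fit was also run on counts simulated from its own fitted means and spreads. Such counts hold no shift in composition or effective length, so they cannot show how the calls fare under these. Named genes were all 10 members and, of the pathway genes called in a comparison, the 3 with the smallest p in each direction, plus genes acting beside a member where a count was 5 or fewer; Pkm, Gpi1, Gapdh, Pgk1, Pgm2 and Arrdc4 were named to account for small counts after their values were seen. Gene positions and transcript lengths came from GENCODE M21 on GRCm38, and promoters from RefSeq. No column of values was left out (0 of them). The samples were separate mice, so p-values measure the spread between these mice. Stxbp3, Tigar, Gyg1 and Adgre1 were not analysed here, and the values of some pathway genes that enter the counts are not reported here.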

Additional observations from a re-analysis of the deposited data

Results flagged for a closer look

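A screen of 42 groups of 4 libraries, made of the 10 members and the 4 ratios in 3 groups, looked for a library set apart from the others of its group. Chance sets about 1 in 20 such groups apart, and 4 of the 42 were. T3 was the lowest HFpEF-TYA-018 library for Slc2a4, at 225 CPM. C1 was the lowest Control-Veh library for both Pygm, at 711 CPM, and Pfkfb2, at 29.7 CPM. C3 was the lowest Control-Veh library for Pfkfb1, at 22.4 CPM. Every HFpEF-Veh library lay below these values for Slc2a4, Pygm and Pfkfb1. Leaving out C1, C3 or T3 in turn left Slc2a4, Pfkfb1 and Pygm called lower in HFpEF-Veh against Control-Veh and Slc2a4, Pfkfb2 and Pygm called higher in HFpEF-TYA-018 against HFpEF-Veh.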

How the results depend on the processing

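No paired analysis was possible because the groups had no animal number in common. Of the 300 member differences recomputed under 10 other settings, 219 kept their direction and side of the threshold. Over the cardiomyocyte markers the side was judged on the unadjusted exact permutation p, elsewhere on the adjusted p. No adjusted p of the exact permutation tests passed over the markers, where the smallest was 0.107. In HFpEF-Veh against Control-Veh, limma called 0 members on log2(TPM + 1), 0 on log2(TPM + 0.1) and 0 on TPM rescaled without mitochondrially encoded genes, and 1, 2 and 4 pathway genes, against 9 with lengths as an edgeR offset. In HFpEF-TYA-018 against HFpEF-Veh, 3 members were called with no filter on low counts, 1 with the offset and 1 on rescaled TPM, with 8 and 4 pathway genes in the last pair. In HFpEF-TYA-018 against Control-Veh, 1 member and 3 pathway genes were called with the offset, 0 members on each TPM scale with 0, 0 and 1 pathway genes, and 17 pathway genes by DESeq2. The cause was not tested. The median over all genes was shifted on log2(TPM + 0.1) by -0.17, 0.34 and 0.17 in the 3 comparisons.

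Differences that changed sign were mostly small. On log2(TPM + 1) and log2(TPM + 0.1), HFpEF-Veh against Control-Veh gave -0.10 and -0.11 for Hk1, -0.18 and -0.19 for Hk2, -0.00705 and -0.0181 for Pfkfb2 and -0.0223 and -0.0304 for Gys1, and Hk2 gave -0.00738 on rescaled TPM. In HFpEF-TYA-018 against HFpEF-Veh the same scales gave 0.31 and 0.34 for Hk1 (0.10 rescaled) and 0.13 and 0.13 for Pfkm, and the offset gave -0.11 for Pfkfb1. In HFpEF-TYA-018 against Control-Veh they gave 0.41 and 0.43 for Slc2a4 (0.35 rescaled, 0.21 with the offset), 0.21 and 0.23 for Hk1 (0.16 rescaled, 0.000499 with the offset), 0.0567 and 0.0569 for Pygm, and -0.12 for Slc2a1 with the offset. Over the cardiomyocyte markers, a scaling chosen after the data were seen, HFpEF-Veh against Control-Veh gave 0.23 for Slc2a1 and 0.0925 for Pfkm, HFpEF-TYA-018 against HFpEF-Veh gave -0.0331 for Slc2a4, -0.27 for Slc2a1, -0.0325 for Hk2, -0.20 for Pfkfb1, -0.21 for Gys1 and -0.0302 for Pygm, and HFpEF-TYA-018 against Control-Veh gave -0.0363 for Slc2a1.

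As ratios of TPM, Gys1 to Pygm gave 0.41 in HFpEF-Veh against Control-Veh and 0.38 in HFpEF-TYA-018 against Control-Veh, Hk1 to Hk2 gave -0.25 and -0.18 in HFpEF-TYA-018 against HFpEF-Veh and Control-Veh, and Slc2a1 to Slc2a4 gave -0.64 and -0.33 in the same 2 comparisons. As ratios of counts these were 0.42 and 0.24, -0.53 and -0.41, and -0.24 and 0.07. Judged on the unadjusted exact permutation p, 6 of the 12 differences kept direction and side of the threshold on TPM. Of the others 4 no longer passed, 1 newly passed and 1 changed sign.

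With each library left out in turn, 4 members were called in HFpEF-Veh against Control-Veh throughout, 3 to 5 in HFpEF-TYA-018 against HFpEF-Veh and 0 to 3 in HFpEF-TYA-018 against Control-Veh, with 14 to 24, 10 to 24 and 3 to 10 pathway genes. The pathway count of HFpEF-TYA-018 against HFpEF-Veh was 10 to 13 without V2, V3, V4, T1, T2 or T3, and that of HFpEF-TYA-018 against Control-Veh was 3 without T2 and 5 without C1, C2, C4, V4 or T1. Slc2a1 ran from -0.0957 to 0.0476, from -0.0334 to 0.117 and from -0.0278 to 0.0750 in the 3 comparisons, and in HFpEF-Veh against Control-Veh Hk2 ran from -0.0276 to 0.0993 and Pfkfb2 from -0.0264 to 0.0980. The ratio of Slc2a1 to Slc2a4 ran from -0.0155 to 0.142 in HFpEF-TYA-018 against Control-Veh. Depth limited Slc2a12 most, at 74 to 260 counts in a library.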
